A study of Mus musculus with 6 samples.

Results

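The subunits of the nuclear RNA polymerases and of the Mediator complex were followed at the transcript level in HT22 cells, a neuronal line derived from the mouse hippocampus. Genes were taken by symbol alone: every row of the deposited count table named Polr1, Polr2 or Polr3 with a letter, or Med with a number, which gave 59 of 29493 rows. These were 5 of polymerase I, 14 of polymerase II (the pseudogene Polr2k-ps among them), 10 of polymerase III and 30 of Mediator. The cells carry a stable transgene for V5-tagged Klf13 under the tet repressor (line HT22-TR/TO-V5Klf13-1), and KLF13 is a zinc-finger transcription factor. The 3 Dox libraries come from cells given doxycycline at 1 µg/ml and the 3 vehicle libraries from cells of the same line given vehicle, with 8 hours of treatment. Both groups carry the transgene, 1 engineered line was used, and no library had doxycycline without the transgene, so an effect of KLF13 and one of the drug cannot be told apart. The series asks how KLF13 acts in hippocampal neurons.

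RNA polymerase I makes the large ribosomal RNA precursor, polymerase II makes messenger RNA, and polymerase III makes transfer RNA, 5S ribosomal RNA and other small RNAs. Each enzyme has a pair of large catalytic subunits and a set of smaller ones, and some small subunits are built into more than 1 of the enzymes. Mediator is a complex of head, middle and tail modules on the scaffold subunit Med14; it passes signals from transcription factors to polymerase II, and a separable kinase module (MED12, MED13, cyclin C and CDK8, or their paralogs) binds it reversibly. KLF and SP factors are known to bind GC-rich promoter elements.

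Libraries held 38566798 to 52930384 counts, and the selected genes took 0.394 to 0.398% of them with vehicle and 0.457 to 0.462% with Dox. Klf13 rose from 36.1 to 39.1 CPM (counts scaled by library size) with vehicle to 183.6 to 204.6 CPM with Dox. Of 21 neuronal markers 13 were in the table and 7 were tested, and Nefh, Grin1 and Elavl4 were under 0.1 CPM. Rbfox3, Snap25, Nefl, Nefm, Gria1, Gad1, Stmn2 and Dcx had no row. Of the 7 tested, 4 fell, 1 (Syt1) rose and 2 did not pass. The summed neuronal level was 87.3 to 88.3 CPM with vehicle and 27.7 to 30.2 CPM with Dox, most of it from Tubb3, which went from 60.75 ± 0.210 to 14.7 ± 0.410 CPM (SD, n = 3 each). All 8 fibroblast markers were in the table and 7 were tested, 6 of which fell and 0 rose; their sum was 12130 to 12830 CPM with vehicle and 9709 to 10290 CPM with Dox, with Lum under 0.1 CPM. The part of these marker changes in the results that follow was not tested. Whether the samples of 1 group came from separate cultures is not stated in the labels; the p-values then cover only the spread among these samples, and that spread may be technical. CPM are shares of a library, and in such bulk samples fewer cells of a type and less RNA per cell cannot be told apart.

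More subunit genes rose than fell, and the 3 largest changes were falls of Polr2e and Polr2h and a rise of Med27. Of 59 genes 58 passed the filter on low counts. With Dox, 31 were higher and 9 lower at an adjusted p under 0.05 (edgeR's quasi-likelihood test, adjusted over all 18067 genes tested), and 18 did not pass. Of all genes tested, 54.7% were called, 25.9% higher and 28.8% lower; among genes with a mean of at least 10 CPM, a level that nearly all of these subunits exceed, 69.6% were called, 32.8% higher and 36.8% lower. The share called among the subunits, 69.0%, was near that second value. The groups did not overlap in 42 of the 58, beside 64.0% of all genes tested (31.8% with Dox higher, 32.2% with Dox lower). Among genes with a mean of at least 10 CPM, they did not overlap in 7710 of 10133, a larger share than in the subunits. The median log2 fold change was 0.18 over the subunits and 0.02 over all genes tested. The genes were selected on their symbols and on no measured value, but the group was proposed with the log2 fold changes of this contrast known, so these counts describe the subunits and carry no test of the group. The balance of calls moved with the scaling: upper-quartile scaling gave 41 subunits higher and 7 lower, and 58.4% of all calls higher against 47.4% with the TMM scaling used here. It moved the median of all genes to 0.11 and that of the subunits to 0.27.

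**Figure D1:**
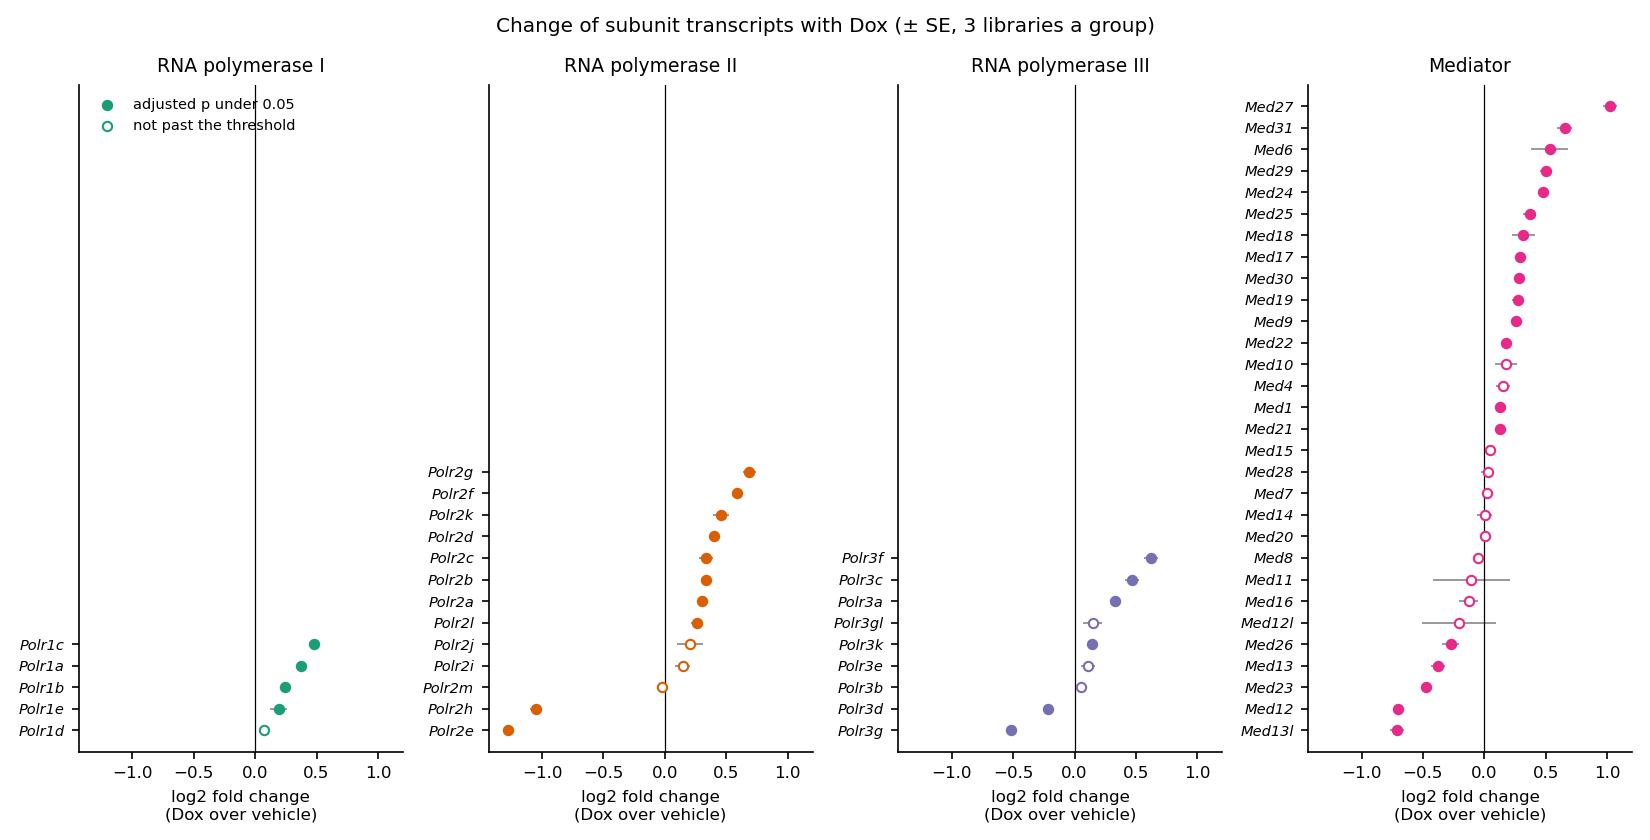
Log2 fold change of Dox over vehicle (x axis) for the tested subunit genes that are reported (y axis), with bars for ± 1 SE and 3 libraries a group; filled points passed an adjusted p of 0.05 and open points did not. Polr2e and Polr2h lie farthest to the left and Med27 farthest to the right.

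Transcripts of RNA polymerase I were mostly higher with Dox. Of 5 Polr1 genes 4 rose and 0 fell, with a median log2 fold change of 0.25. Calls made up 80% of them, beside 69.6% of all genes with a mean of at least 10 CPM. The summed level of the 5 went from 482.8 to 489.7 CPM with vehicle to 578.8 to 592.2 CPM with Dox. Polr1a, the largest subunit, which holds part of the active site, was at 155.7, 162.6 and 155.5 CPM in the vehicle libraries and 206.6, 206.0 and 200.9 CPM in the Dox libraries. Every Dox library lay above every vehicle library, a 1.29-fold rise (log2 fold change 0.37 ± 0.028 SE, adjusted p = 5.7e-05). Polr1b, the second large subunit, rose from 69.6 ± 0.716 to 82.4 ± 0.258 CPM (SD, n = 3 each). Polr1c and Polr1d form an assembly platform that polymerases I and III share. Polr1c rose from 70.8 to 73.3 CPM to 97.8 to 104.9 CPM (log2 fold change 0.48 ± 0.037 SE, adjusted p = 6.6e-05). Polr1d, its partner, was at 145.6 to 156.2 CPM with vehicle and 155.2 to 164.7 CPM with Dox; the groups overlapped and the difference did not pass (0.07 ± 0.037 SE, adjusted p = 0.16).

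Polr1e, a subunit of the arm that resembles an initiation factor, was near the threshold. Its libraries held 36.6, 31.6 and 33.1 CPM with vehicle and 40.5, 36.7 and 38.4 CPM with Dox (log2 fold change 0.19 ± 0.066 SE, adjusted p = 0.049), and the groups were separated by only a narrow gap. Leaving out vehicle replicate 2 or 3 moved the adjusted p to 0.13, and leaving out Dox replicate 1, 2 or 3 moved it to 0.15, 0.057 and 0.11. The 3 polymerase I subunits listed under older symbols rose as well. Cd3eap, the partner of Polr1e, rose from 61.7 ± 2.20 to 101.4 ± 0.412 CPM and Twistnb, a subunit of the stalk, from 28.7 ± 0.756 to 47.1 ± 0.495 CPM (SD, n = 3 each). Znrd1, a small zinc-ribbon subunit, rose by 0.39 ± 0.065 (log2, SE). Cd3eap shares 106 exonic bases with Ercc1. Among 6 initiation factors of polymerase I, 3 rose and 3 fell, a share called of 100%, beside 69.6% of all genes with a mean of at least 10 CPM. Ubtf, which binds ribosomal DNA, fell by 0.54 ± 0.031 and Taf1b, of the selectivity factor SL1, by 0.54 ± 0.050 on the log2 scale (SE).

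Within RNA polymerase II, most subunits rose while 2 of the 5 subunits common to all 3 enzymes fell more than 2-fold. Of the 12 subunits of the enzyme, leaving out the associated protein Polr2m and the pseudogene, 8 rose, 2 fell and 2 did not pass. Calls made up 83.3% of the 12 and 100% of the 5 shared subunits, beside 69.6% of all genes with a mean of at least 10 CPM. Polr2a, the largest subunit, whose C-terminal repeats are phosphorylated during transcription, was at 291.9, 313.9 and 294.9 CPM with vehicle and 372.0, 381.8 and 357.7 CPM with Dox. The groups did not overlap, and the rise was 1.23-fold (log2 fold change 0.30 ± 0.038 SE, adjusted p = 6.7e-04). Polr2b, the second large subunit, went up 1.26-fold; its vehicle mean was 167.9 ± 3.69 CPM and its Dox mean 211.4 ± 3.52 CPM (SD, n = 3 each). The stalk subunits Polr2g and Polr2d, which contact the emerging RNA, rose by 0.69 ± 0.052 and 0.40 ± 0.039 on the log2 scale (SE). Polr2g was the largest rise among the Polr2 genes, from 84.2 to 95.7 CPM to 140.1 to 148.5 CPM.

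Polr2c and Polr2j form the assembly platform of polymerase II. Polr2c rose by 0.34 ± 0.055 on the log2 scale (SE); it shares 953 exonic bases with Dok4, which fell and held 112 to 393 counts. Polr2j, at 43.7 to 52.1 CPM with vehicle and 50.4 to 63.5 CPM with Dox, overlapped between groups and did not pass (adjusted p = 0.16). Polr2i, a subunit that acts in proofreading, was at 13.7 to 15.5 CPM with vehicle and 15.8 to 16.9 CPM with Dox; the groups did not overlap, and it did not pass (adjusted p = 0.088). It was called higher with upper-quartile scaling (adjusted p = 0.018) and with an offset for transcript GC content (adjusted p = 0.0027). Polr2i, with 569 to 836 counts, shares 325 exonic bases with Tbcb, which held 674 to 2034 counts and fell by 1.29 on the log2 scale, and their reads on these bases cannot be told apart. Polr2m, a protein that binds polymerase II and hinders initiation, was at 239.5 ± 12.2 and 235.2 ± 1.79 CPM (SD, n = 3 each, adjusted p = 0.6). Polr2k-ps had 2 or 3 counts in each vehicle library and 0 in each Dox library and was not tested.

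Polr2e fell in every Dox library. This gene encodes a shared subunit of the jaw that grips downstream DNA. Its libraries held 81.2, 76.3 and 81.4 CPM with vehicle and 33.0, 32.1 and 33.4 CPM with Dox. The lowest vehicle library was far above the highest Dox library, a 2.42-fold fall (log2 fold change -1.28 ± 0.038 SE, adjusted p = 2.3e-06). Polr2h, another subunit common to polymerases I, II and III, was at 44.4, 41.5 and 44.1 CPM with vehicle and 20.8, 20.1 and 21.97 CPM with Dox. It fell 2.07-fold (-1.05 ± 0.050 SE, adjusted p = 9.6e-06), and the groups were wide apart. Over the alternative fits the log2 fold changes ran from -1.309 to -0.991 for Polr2e and from -1.082 to -0.955 for Polr2h. Both stayed called lower, but not every fit gave a fall of 2-fold. The remaining shared subunits rose. Polr2f, which helps to assemble the core, rose 1.5-fold from 97.9 to 104.6 CPM to 151.1 to 155.5 CPM (0.58 ± 0.033 SE, adjusted p = 1.8e-05; 0.93 with an offset for transcript GC content), and the zinc-binding subunits Polr2k and Polr2l rose by 0.46 ± 0.064 and 0.26 ± 0.050 on the log2 scale (SE). As the 5 shared subunits moved both ways, their summed level was 275.0 to 294.2 CPM with vehicle and 282.5 to 288.8 CPM with Dox. Falls of at least 1.5-fold were called in 14.8% of all genes tested.

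In GENCODE M21 (GRCm38), Polr2e occupies 80035949 to 80039795 of chromosome 10, minus strand, and overlaps the exons of no other gene by 50 bases or more. Polr2h occupies 20717665 to 20722267 of chromosome 16, plus strand, and shares 82 exonic bases with Clcn2, which was at 871 to 1169 counts with vehicle and 979 to 1019 counts with Dox (adjusted p = 0.15).

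**Figure D2:**
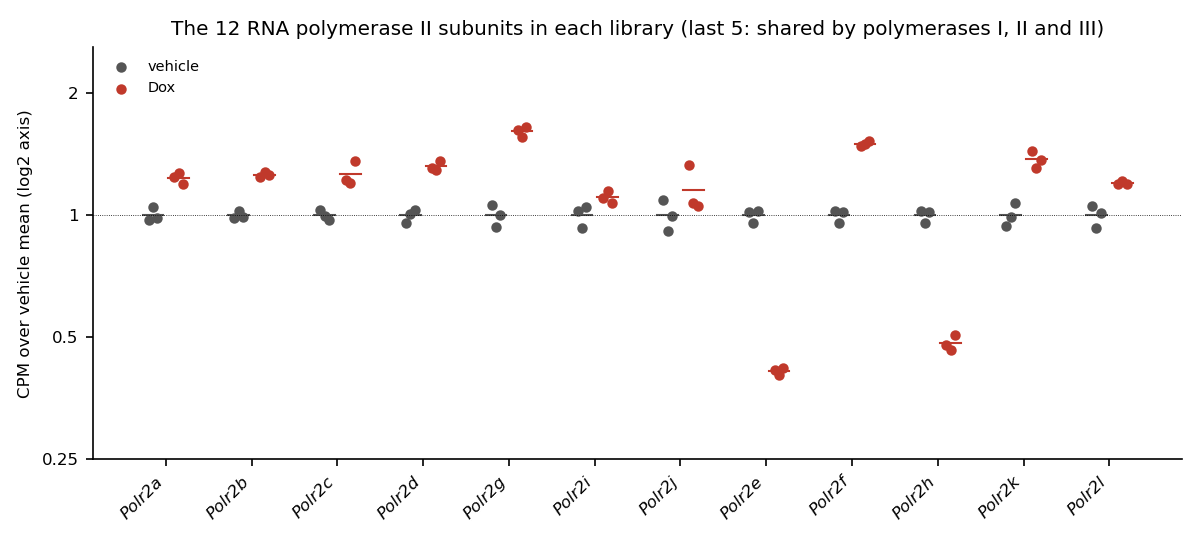
CPM of the 12 polymerase II subunits in each library, divided by the vehicle mean of that gene (y axis, log2 scale); grey points are the 3 vehicle and red points the 3 Dox libraries, and short lines are group means. Polr2e and Polr2h sit near 0.4127 and 0.4835 of the vehicle level, below every other subunit.

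Promoter sequences of the members were read from RefSeq (GRCm38.p6, 250 bases before to 50 after each start) to set the fallen beside the risen subunits. They were found for 48 of the 59 genes (54 promoters) and searched on both strands for the GC box GGGCGG, the CACCC box CCACCC and the short element CGCCC, which every GC box contains. A GC box was in 8 of 8 promoters of the 7 fallen members with an entry (Polr2e, Polr2h, Polr3g, Med12, Med13, Med13l and Med26), in 14 of 25 promoters of risen members (56.0%) and in 11 of 21 of those that did not pass (52.4%). It was in 35.7% of all 32851 promoters of the table, in 60.1% of those of tested genes, in 54.2% of those of all genes called higher and in 71.3% of those of all genes called lower. The CACCC box was in 37.5% of promoters of fallen members, 32.0% of risen ones and 14.3% of those that did not pass. It was in 41.4% of promoters of all genes called lower, 30.8% of those called higher and 35.9% of those tested. For the short element the member shares were 100%, 84.0% and 76.2%. Its shares over genes called lower, called higher and tested were 82.3%, 70.8% and 73.9%. Base composition moved with these shares: the median GC content was 66.7% in promoters of fallen members, 57.7% in those of risen ones and 60.3% in those of tested genes. Its part in the motif shares was not tested, and a match describes letters in a window and no binding.

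The stretches of the shared subunits Polr2e, which fell, and Polr2l, which rose, show that a GC box stood upstream of both; capitals mark GC boxes on either strand, and bases in annotated exons are left out. The Polr2e stretch (chr10:80039796-80039909, minus strand, GRCm38.p6) ends 136 bases before the RefSeq start and holds 1 box, and the Polr2l stretch (chr7:141475154-141475239, minus strand) ends at the start and holds 3. Over the full promoter window Polr2e and Polr2l have 3 GC boxes each. Polr2l does not stand for the risen shared subunits: Polr2f, which rose more, has 0, and Polr2k had no promoter entry. The promoters of Polr2h, which fell, have 1 and 2.
Polr2e: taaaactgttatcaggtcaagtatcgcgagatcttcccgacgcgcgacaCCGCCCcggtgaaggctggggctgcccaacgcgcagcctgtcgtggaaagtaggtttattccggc
Polr2l: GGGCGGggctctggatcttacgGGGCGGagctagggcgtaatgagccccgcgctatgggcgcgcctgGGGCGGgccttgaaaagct

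Transcripts of RNA polymerase III moved in both directions. Of 10 Polr3 genes 5 rose, 2 fell and 3 did not pass, with a median log2 fold change of 0.15. Calls made up 70% of them, near the 69.6% of all genes with a mean of at least 10 CPM. The large subunit Polr3a rose from 40.7 to 43.5 CPM to 52.4 to 53.6 CPM (log2 fold change 0.33 ± 0.036 SE, adjusted p = 3.1e-04). Polr3b was at 69.8 to 71.8 CPM with vehicle and 70.4 to 76.1 CPM with Dox, and its groups overlapped (0.06 ± 0.037 SE, adjusted p = 0.25). It was called higher with upper-quartile scaling (0.149, adjusted p = 0.0088) and with an offset for transcript length (0.244, adjusted p = 3.5e-04), and the difference between the changes of Polr3a and Polr3b was not tested.

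A detachable trimer of Polr3c, Polr3f and either Polr3g or its paralog Polr3gl opens promoters for polymerase III. Polr3f rose 1.54-fold, from 38.5, 43.6 and 42.6 CPM to 62.1, 66.5 and 63.6 CPM (0.62 ± 0.056 SE, adjusted p = 1.4e-04), the largest rise of the Polr3 genes. Polr3c rose from 68.9 ± 1.35 to 95.2 ± 7.29 CPM (SD, n = 3 each), with Dox replicate 2 the lowest of its group at 86.9 CPM. Polr3g fell 1.43-fold, from 24.7, 24.6 and 25.8 CPM to 17.1, 17.2 and 18.3 CPM, and the groups did not overlap (-0.51 ± 0.046 SE, adjusted p = 1.4e-04). Polr3gl was at 6.49, 6.70 and 6.38 CPM with vehicle and 7.02, 6.67 and 8.00 CPM with Dox, with overlapping groups (0.15 ± 0.079 SE, adjusted p = 0.16). Scaled by transcript length, Polr3gl made up 35.8 ± 1.11% of the pair with vehicle and 46.8 ± 1.56% with Dox (SD, n = 3 each), higher in every Dox library. An exact two-sided permutation test over libraries gave p = 0.1, the smallest that 3 against 3 allow.

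**Figure D3:**
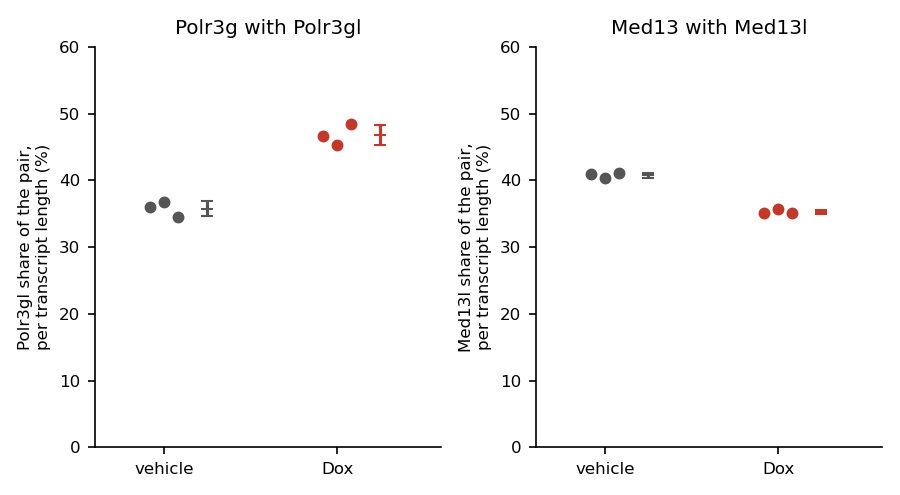
Share of the second paralog in the length-scaled level of its pair (y axis, %), for Polr3g with Polr3gl and Med13 with Med13l, in the 3 vehicle and 3 Dox libraries; points are libraries, and bars are mean ± SD. The Polr3gl share lies between 34.6 and 36.8% with vehicle and between 45.3 and 48.4% with Dox, and the Med13l share is lower with Dox.

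Polr3k, which acts in termination and RNA cleavage, rose by 0.14 ± 0.033 on the log2 scale (SE). Polr3d and Polr3e form a heterodimer used in termination. Polr3d fell slightly, from 29.3 to 31.1 CPM to 25.3 to 26.3 CPM (-0.21 ± 0.042 SE, adjusted p = 0.0048), a call that was lost with upper-quartile scaling (-0.12, adjusted p = 0.054) and with an offset for transcript GC content (-0.07, adjusted p = 0.2). Polr3e was at 47.3 ± 1.58 and 51.1 ± 3.66 CPM (SD, n = 3 each, adjusted p = 0.16). Crcp, a subunit of polymerase III outside the symbol rule, was at 20.02 ± 2.01 and 17.5 ± 1.39 CPM (SD, n = 3 each, adjusted p = 0.13). Among 16 genes for initiation factors and a repressor of polymerase III, 9 rose, 4 fell and 3 did not pass. The share called was 81.2%, beside 69.6% of all genes with a mean of at least 10 CPM. Snapc2, of the complex that activates small nuclear RNA genes, dropped 3.36-fold, with 29.0 ± 0.895 CPM in vehicle and 8.62 ± 1.3 CPM in Dox libraries, and Maf1, the repressor of polymerase III, fell from 42.4 ± 4.41 to 30.5 ± 1.46 CPM (SD, n = 3 each).

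In Mediator the rises lay outside the kinase module, and 3 of the 5 falls lay within it. Of the 26 genes of the core complex 14 rose, 2 fell and 10 did not pass (median log2 fold change 0.17), and of the 4 genes of the kinase module 3 fell, 0 rose and 1, Med12l, did not pass (median -0.54). The summed level of the 26 core genes was 1499 to 1553 CPM with vehicle and 1664 to 1704 CPM with Dox, and that of the kinase module genes 326.4 to 357.0 and 219.5 to 239.5 CPM. The difference between these 2 sets was not tested. Calls made up 63.3% of all 30 Mediator genes, 61.5% of the core and 75% of the kinase module. Among all genes with a mean of at least 10 CPM 69.6% were called, 32.8% higher and 36.8% lower. By part, calls made up 57.1% of the head, 66.7% of the middle, 60% of the tail and 75% of the genes between head and tail.

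Med12, which activates the kinase, was at 114.7, 118.7 and 110.0 CPM with vehicle and 69.7, 73.0 and 67.9 CPM with Dox. All Dox libraries lay below all vehicle libraries, a 1.63-fold fall (-0.70 ± 0.042 SE, adjusted p = 2.1e-05). Med13l, a paralog of the subunit that joins the module to core Mediator, was at 80.1, 89.1 and 83.2 CPM with vehicle and 50.4, 54.6 and 48.9 CPM with Dox, a 1.64-fold fall (-0.71 ± 0.058 SE, adjusted p = 8.4e-05). Med13 itself fell less, 1.3-fold, from 131.3, 149.1 and 135.3 CPM to 105.7, 111.7 and 102.4 CPM (-0.38 ± 0.057 SE, adjusted p = 0.0015). Scaled by length, Med13l made up 40.8 ± 0.352% of its pair with vehicle and 35.3 ± 0.311% with Dox (SD, n = 3 each), lower in every Dox library (exact permutation p = 0.1, the smallest possible). Med12l, the Med12 paralog, had 9 to 21 counts in every library and was 0.179 ± 0.0592% of its pair with vehicle and 0.254 ± 0.0571% with Dox, which overlapped between groups.

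The kinases of the module, tested from a list outside the symbol rule, fell too. Cdk8 was at 63.4, 66.6 and 65.8 CPM with vehicle and 40.4, 40.9 and 40.8 CPM with Dox (-0.68 ± 0.031 SE, adjusted p = 8.4e-06). Its paralog Cdk19 fell 2.57-fold, from 44.0, 45 and 42.5 CPM to 14.9, 18.4 and 17.7 CPM (-1.36 ± 0.083 SE, adjusted p = 2.4e-05). Ccnc, which encodes cyclin C, was at 36.5, 37.8 and 37.7 CPM with vehicle and 36.2, 37.6 and 38.3 CPM with Dox, and did not pass (0.002 ± 0.038 SE, adjusted p = 0.97). Of the 7 genes of the module with its partners 5 fell, 0 rose and 2 did not pass. That share called, 71.4%, was near the 69.6% of all genes with a mean of at least 10 CPM, where 36.8% were called lower.

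**Figure D4:**
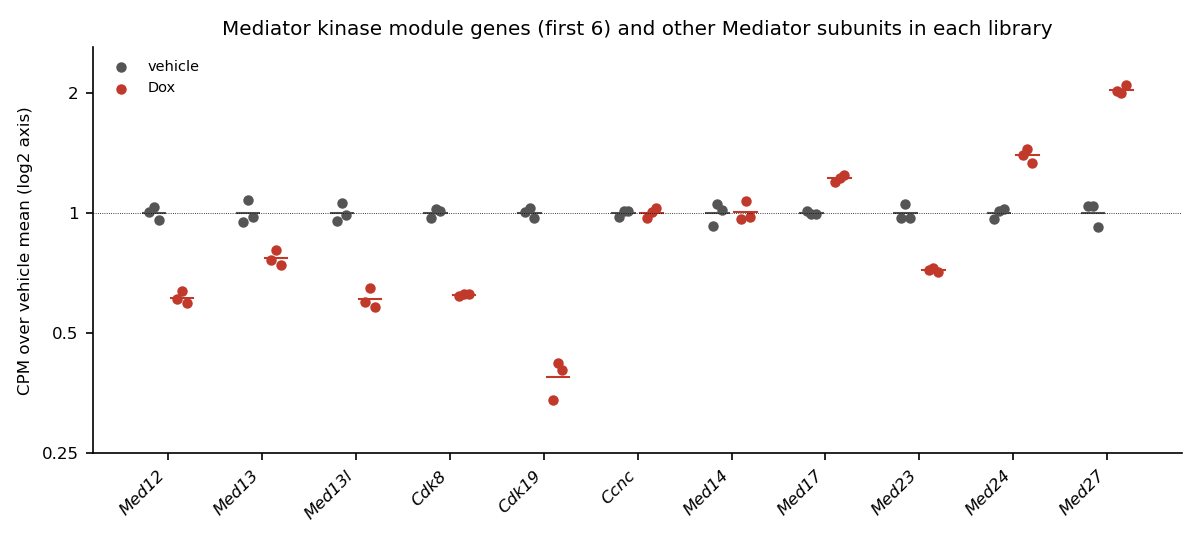
CPM of 6 kinase module genes (Med12, Med13, Med13l, Cdk8, Cdk19, Ccnc) and 5 other Mediator subunits in each library, divided by the vehicle mean of the gene (y axis, log2 scale); grey points are vehicle, red points Dox, and short lines are group means. The Dox points of Med12, Med13l and Cdk8 lie near 0.6134, 0.6095 and 0.6236 of the vehicle level, and those of Ccnc and Med14 scatter around it.

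The 3 fallen Med genes of the kinase module each have an annotated neighbour on their exons. Med12 (chromosome X, 101274030 to 101297465, plus strand) shares 749 bases with Gm21986, which held 51 to 98 counts against 2967 to 5703 of Med12. Med13l (chromosome 5, 118560679 to 118765438, plus strand) shares 55 bases with Gm43785, with at most 5 counts. Med13 (chromosome 11, 86267033 to 86357602, minus strand) shares 800 bases with the antisense gene Brip1os, which held 5624 to 7477 counts with vehicle and 5302 to 6001 with Dox and itself fell by 0.27 on the log2 scale (adjusted p = 2.1e-04). How reads on both genes or strands were counted is not given in the sources used here, so reads of Med13 and Brip1os cannot be told apart on the shared bases. With an offset for transcript length the log2 fold changes were -0.47 for Med12, -0.44 for Med13l and -0.09 for Med13, each still called.

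Upstream stretches are shown for these 3 genes and for Med27, the Mediator gene with the largest rise. Capitals mark GC boxes and CACCC boxes on either strand. Med27 does not stand for the risen Mediator genes. Over the full promoter window Med22 held 3 GC boxes, Med6, Med9 and Med29 2 each and Med1, Med18 and Med21 1 each. Med17, Med19, Med25 and Med31, like Med27, held 0. The Med13 stretch (chr11:86357603-86357722, minus strand, GRCm38.p6) holds 7 GC boxes, some of them overlapping. The Med13l stretch (chr5:118560559-118560678, plus strand) holds 2, the Med12 stretch (chrX:101273910-101274029, plus strand) 1 with 1 CACCC box, and the Med27 stretch (chr2:29346690-29346809, plus strand) 0 of either.
Med12: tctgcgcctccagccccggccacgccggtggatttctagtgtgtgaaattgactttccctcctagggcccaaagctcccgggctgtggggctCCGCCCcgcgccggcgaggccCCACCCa
Med13: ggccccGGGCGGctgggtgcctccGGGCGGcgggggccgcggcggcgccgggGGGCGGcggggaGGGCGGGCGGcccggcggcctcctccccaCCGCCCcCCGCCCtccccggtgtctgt
Med13l: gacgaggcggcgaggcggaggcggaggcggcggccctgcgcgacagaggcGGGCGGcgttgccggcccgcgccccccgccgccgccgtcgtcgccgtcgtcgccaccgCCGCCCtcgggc
Med27: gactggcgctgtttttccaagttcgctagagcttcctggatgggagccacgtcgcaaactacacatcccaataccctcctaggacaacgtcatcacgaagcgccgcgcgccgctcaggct

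In the head module, which contacts polymerase II, 4 of 7 genes rose and 0 fell. Med17, the central head subunit, rose from 49.1 to 50.1 CPM to 59.2 to 61.5 CPM (log2 fold change 0.29 ± 0.030 SE, adjusted p = 2.4e-04), and Med22, a small head subunit, rose by 0.18 ± 0.029 (SE). Med6 was at 15.8, 19.5 and 16.9 CPM with vehicle and 26.0, 29.1 and 20.2 CPM with Dox (0.53 ± 0.15 SE, adjusted p = 0.021), with Dox replicate 3 close to the vehicle range; leaving out vehicle replicate 1 or 3 gave adjusted p = 0.069 and 0.068, and leaving out Dox replicate 1 or 2 gave 0.059 and 0.053. Med18 rose by 0.32 ± 0.092 (SE), from 8.44 ± 0.908 to 10.5 ± 0.620 CPM (SD, n = 3 each), a call lost when vehicle replicate 2 or 3 (adjusted p = 0.066 and 0.062) or Dox replicate 1 or 3 (0.051 and 0.078) was left out, and with a replicate block (0.062). Med11 varied most, at 13.6, 22.9 and 13.2 CPM with vehicle and 18.3, 18.2 and 9.76 CPM with Dox, and did not pass (adjusted p = 0.8). Med20 and Med8 had log2 fold changes of 0.002 and -0.06 with overlapping groups.

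In the middle module, 5 of 9 genes rose, 1 fell and 3 did not pass. Med31, a small conserved subunit, rose 1.57-fold from 10.5, 10.4 and 11.2 CPM to 16.6, 16.1 and 17.9 CPM (0.66 ± 0.061 SE, adjusted p = 1.5e-04). Med19 and Med9 rose by 0.27 ± 0.043 and 0.26 ± 0.035 (log2, SE). Med19 shares 246 exonic bases with Zdhhc5, which held 4693 to 8080 counts and fell. Med1, which binds nuclear receptors, rose little, from 164.1, 175.0 and 168.3 CPM to 183.6, 188.7 and 182.6 CPM (0.13 ± 0.031 SE, adjusted p = 0.012; 0.39 with an offset for transcript length). Med21, which joins Med7 in the hinge of the module, rose by 0.13 ± 0.036 (SE), a call lost with no filter on low counts (adjusted p = 0.061) and when vehicle replicate 1 or 2 (0.062 and 0.064) or Dox replicate 1 or 3 (0.075 and 0.059) was left out. It shares 197 exonic bases with Tm7sf3, which held 1711 to 2642 counts and rose. Med26, which recruits elongation factors, was at 17.3, 17.8 and 16.9 CPM with vehicle and 13.2, 15.4 and 14.4 CPM with Dox (-0.27 ± 0.068 SE, adjusted p = 0.014). With an offset for transcript GC content Med26 had a log2 fold change of 0.005 (adjusted p = 0.96), with upper-quartile scaling -0.18 (adjusted p = 0.052), and with an offset for transcript length an adjusted p of 0.062. It shares 381 exonic bases with Gm17435, at 202 to 267 counts. Med4, also of the middle, was at 20.4 to 23.1 CPM with vehicle and 24.0 to 24.3 CPM with Dox, just outside the threshold (adjusted p = 0.056), and Med7 and Med10 overlapped between groups.

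The tail, which receives most transcription factors, was mixed: 2 of 5 genes rose, 1 fell and 2 did not pass. Med24 rose from 91.4, 95.8 and 96.6 CPM to 132.2, 136.8 and 126.3 CPM (0.48 ± 0.040 SE, adjusted p = 9.4e-05) and Med25, a target of activators of the ETS family, from 82.3 to 88.1 CPM to 105.0 to 118.8 CPM. Med23, which lies beside Med24 in the tail and receives ELK1, fell from 109.8, 118.8 and 109.8 CPM to 81.3, 82.3 and 80.4 CPM (-0.47 ± 0.038 SE, adjusted p = 8.6e-05; -0.28 with an offset for transcript length). It shares 107 exonic bases with Gm23410, at no more than 2 counts a library. Med15 was at 92.8 ± 2.77 and 95.9 ± 1.63 CPM and Med16 at 54.9 ± 1.80 and 50.2 ± 5.07 CPM (SD, n = 3 each), and neither passed. The scaffold Med14 was at 149.9, 170.4 and 164.4 CPM with vehicle and 155.7, 172.7 and 157.6 CPM with Dox, with overlapping groups (0.004 ± 0.061 SE, adjusted p = 0.97). With an offset for transcript length it was called higher (0.244, adjusted p = 0.0024).

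Among the 4 subunits between head and tail 3 rose. Med27 had the largest rise of all members, from 26.2, 26.1 and 23.2 CPM to 50.9, 50.2 and 52.6 CPM. The highest vehicle library was well below the lowest Dox library, a 2.04-fold rise (1.03 ± 0.057 SE, adjusted p = 1.7e-05). Rises of at least 1.5-fold were called in 7.32% of all genes tested. Med29 rose by 0.50 ± 0.048 and Med30 by 0.28 ± 0.039 (log2, SE), while Med28 was at 31.6 ± 1.85 and 32.2 ± 0.245 CPM (SD, n = 3 each, adjusted p = 0.69).

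Levels of different subunits were set beside each other per length, as CPM per kilobase of the longest annotated transcript. The summed CPM given above were not scaled by length, so long transcripts weigh more in them. With vehicle the 12 polymerase II subunits ran from 17.4 (Polr2c) to 115.3 (Polr2f) CPM per kilobase, a 6.63-fold span, and with Dox from 19.96 (Polr2i) to 173.0 (Polr2f), an 8.67-fold span. Polr2e went from 69.3 ± 2.53 to 28.6 ± 0.582 CPM per kilobase and Polr2h from 45.6 ± 1.66 to 22.1 ± 0.993 (SD, n = 3 each), so that both passed from at or above the median of the 12, 45.1 with vehicle, to below it, 45.3 with Dox. Polymerase III subunits were lower, with a median of 12.7 CPM per kilobase with vehicle, a lowest value of 4.57 for Polr3gl and a highest of 28.6 for Polr3c. Mediator subunits had a median of 17.6, and Med21 was the highest at 159.8 CPM per kilobase. The longest transcript need not be the one that HT22 cells use, so these spans are approximate.

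**Figure D5:**
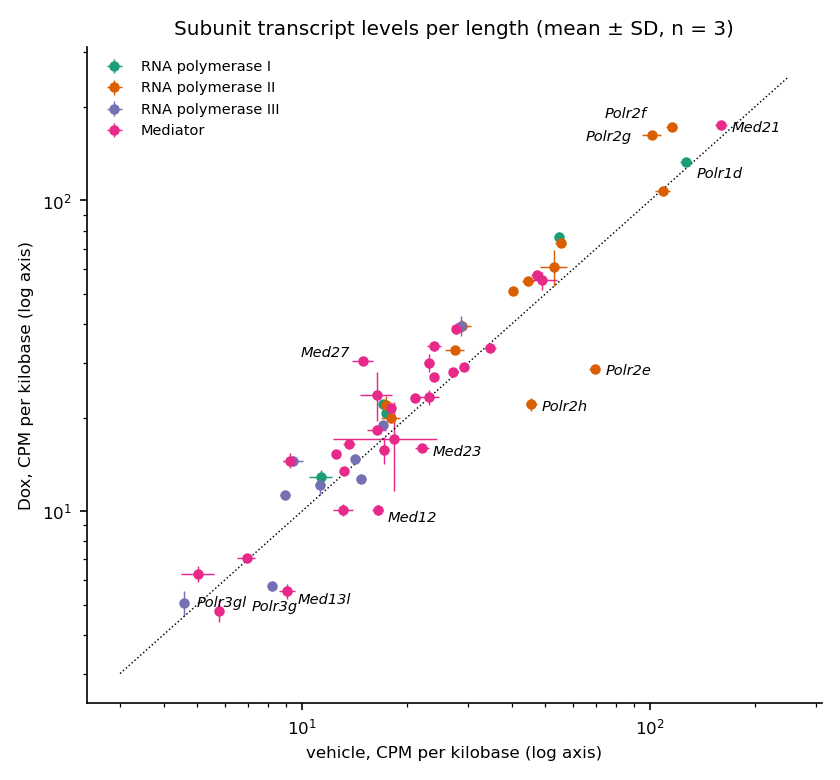
Mean level per kilobase of transcript with vehicle (x axis) and with Dox (y axis) for the tested subunits that are reported, leaving out Med12l, on log axes with bars of ± 1 SD (n = 3); colours are the 4 sets, and the dotted line marks equal levels. Polr2e and Polr2h lie farthest below the line, and Polr2f and Polr2g are above it at the high end.

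Other genes that work with polymerase II were counted from fixed lists. The share called was 66.7% of initiation factors, 71.4% of pausing and elongation genes and 66.7% of assembly genes. These shares were near the 69.6% of all genes with a mean of at least 10 CPM. Among 33 genes for initiation factors, 16 were higher, 6 lower and 11 neither (median log2 fold change 0.14): Taf4b, a TFIID subunit, rose by 0.91 ± 0.038 and Gtf2f1, the large subunit of TFIIF, by 0.85 ± 0.024 (SE). Of 21 tested genes of pausing and elongation, of 22 listed, 11 were higher, 4 lower and 6 neither (median 0.15). Paf1, of the PAF elongation complex, rose from 41.5 ± 1.33 to 74.2 ± 2.55 CPM, and Ell, of the super elongation complex, fell from 32.3 ± 1.13 to 22.6 ± 0.895 CPM (SD, n = 3 each). Of 6 genes of polymerase assembly in the cytoplasm 3 rose and 1 fell; Gpn3, a GTPase of that step, rose by 0.70 ± 0.13 and Rpap1, which binds polymerase II, by 0.36 ± 0.055 (SE), and Gpn3 shares 482 exonic bases with Fam216a.

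In the authors' deposited table, 27 of the 59 members are marked as called with a positive log2 fold change and 8 with a negative one. That mark is stricter than the threshold of 0.05 used here. Polr1e, Med18, Med21, Polr3k and Med26 are marked as not called, with deposited adjusted p of 0.035, 0.029, 0.018, 0.016 and 0.014. The deposited log2 fold changes are -1.27 for Polr2e, -1.04 for Polr2h, 1.02 for Med27, -0.70 for Med12 and -0.71 for Med13l.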

How the data were processed

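RNA of 3 Dox and 3 vehicle samples of the HT22 line was sequenced from libraries of total RNA. The authors deposited raw counts per gene symbol; tools listed in the submitters' processing notes are HISAT2 2.1.0, StringTie 1.3.3, FastQC 0.11.3 and DESeq2, with the build GRCm38. The annotation, strand setting and treatment of reads with several matches: not given in the sources used here. Per the file headers, the comparison table deposited by the authors has p-values, a test score, log2 fold changes with errors and the signal averaged over normalized libraries.

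Counts were tested with edgeR 4.0.16 in R 4.3.3 (limma 3.58.1): TMM scaling, filterByExpr, quasi-likelihood fit, Benjamini-Hochberg adjustment over 18067 genes, threshold 0.05. Dividing the absolute log2 fold change by the root of F gave the SE. CPM use the TMM-scaled library size. Positions, lengths and exonic overlaps of at least 50 bases come from GENCODE M21 and promoters from RefSeq. Genes named are the 6 largest changes in each set, preset members and 2 per comparison list; the remaining members were added for a full account after their values were seen, and 1 member, included in counts and sums, is not reported here by name. The members and lists were chosen with earlier results of these data known. No 2 libraries agreed within sampling noise. On simulated counts for Dox against vehicle (18067 genes), 4 of 50 genes changed 1.25-fold, 26 of 50 changed 1.5-fold and 45 of 50 changed 2-fold were recovered. There were 11 false calls among 17867 genes left unchanged. In the data 9890 genes were called, so the adjusted threshold was stricter in the simulation. Its recovery does not give the power of the real comparison. Alternatives were other filters, scalings, tests (DESeq2 1.42.0, limma-voom, glmTreat), thresholds, offsets for GC content and length, a replicate block and each library left out.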

Additional observations from a re-analysis of the deposited data

How the results depend on the processing

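Of the 31 subunits called higher 26, and of the 9 called lower 7, kept their call in every fit at the threshold of 0.05 other than the test against a minimum fold change; the exceptions included Med6, Med18, Med21, Polr1e, Med26 and Polr3d. Over 985 values of the 58 subunits under the alternatives, 887 kept direction and side of the threshold, 49 lost the call, 31 gained one and 18 changed sign.

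Tested against a fold change of 1.2 with glmTreat, the subunits called higher were 2 of polymerase I, 5 of polymerase II, 3 of polymerase III and 5 of Mediator, 7 subunits in all were called lower, 1 of them of polymerase III, and of all genes 2417 were higher and 3615 lower. Leaving out members with exonic overlap, which removes genes, left 5 higher and 1 lower for polymerase II and 8 higher and 0 lower for Mediator. Polymerase III had 8 higher and 1 lower with upper-quartile scaling and 1 lower with the GC offset. Calls were gained with upper-quartile scaling (Polr1d, Polr2i, Polr3b, Polr3e, Polr3gl, Med4, Med7, Med10, Med15, Med20), the GC offset (Polr1d, Polr2i, Polr2j, Polr3gl, Med4, Med15) and the length offset (Polr3b, Polr3e, Med4, Med7, Med14, Med15, Med28), all higher. The cause of the other shifts was not tested.

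Among members that did not pass, signs changed for Med12l (0.084 with the length offset, and from -0.419 to 0.015 with 1 library left out), Med14 (from -0.049 to 0.041 with 1 left out), Med11 (from -0.248 to 0.198), Med16 (0.215 with the GC offset) and Med28 (from -0.021 to 0.059 with 1 left out). The same held for Med20 (-0.001 with DESeq2 size factors, and from -0.003 to 0.019 with 1 left out), Med8 (0.038 with upper-quartile scaling) and Polr2m (0.067 with upper-quartile scaling, 0.021 with the GC offset, 0.028 with the length offset, and from -0.069 to 0.001 with 1 left out). Med26, called lower, was at 0.005 with the GC offset.

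Samples with the same replicate number did not deviate together (correlations of 0.039, 0.044 and -0.075 over 14635 genes). These values show no shared deviation, but they cannot settle whether samples with the same number were handled together. A replicate block gave 4602 genes higher and 5097 lower, and 32 and 9 subunits; Med10 (adjusted p = 0.03) and Polr2j (adjusted p = 0.031) passed and Med18 (adjusted p = 0.062) did not. Small fold changes were often missed on simulated counts, in which far fewer genes changed than were called in the data. With 3 libraries a group, subunits that did not pass are not shown to be unchanged.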
